A study of Mus musculus with 8 samples.

Results

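A set of 10 protein-coding genes around Smg6 on mouse chromosome 11 was examined in the adult frontal cortex of WT and HAR123-KO mice. They were Rap1gap2, Cluh, Pafah1b1, Mettl16, Mnt, Sgsm2, Srr, Hic1, Crk and Ywhae, 10 of the 55536 genes of the count table, and they were chosen by name as neighbours whose human counterparts lie in band 17p13.3, the lissencephaly region. HAR123, a human accelerated region (an element conserved among mammals that diverged rapidly in humans), is an enhancer in an intron of SMG6, and the HAR123-KO mice carried a CRISPR-Cas9 deletion of its mouse counterpart. The question was whether loss of an element inside Smg6 changed the RNA of the genes around it, and how large a change the data leave possible at each one. There were 4 WT and 4 HAR123-KO libraries, all from the frontal cortex of 8-week-old mice, and the study's mouse strains were backcrossed to C57BL/6J, with WT littermates as controls. The tissue was sequenced in bulk after removal of ribosomal RNA. In such data a smaller number of cells of a type and less RNA per cell cannot be told apart. Whether each library came from a separate animal is not given in the labels, so the p-values below measure the spread between these libraries. Where the deletion lies on chromosome 11 was not analysed here, and distances were therefore taken from the Smg6 gene body.

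An enhancer can act on promoters other than that of its host gene, sometimes over long distances, and neighbours are the usual candidates. Loss of one copy of human PAFAH1B1, which encodes the dynein regulator LIS1, causes lissencephaly, a smooth cortex that follows from failed neuronal migration. Larger deletions of the same band that also take YWHAE and CRK cause the more severe Miller-Dieker syndrome, in which HIC1 and MNT can be lost as well. Smg6 itself encodes the endonuclease of nonsense-mediated mRNA decay.

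The promoters of Smg6 and of the neighbours whose start sites lie closest to the ends of its gene body are shown. Which start site is nearest to the deleted element was not determined, and promoters farther inside Smg6 were not examined. RefSeq windows on GRCm38.p6 that reach from 250 bases before to 50 bases after a start site were found for 10 of the 10 genes, 14 windows in all, and for Smg6. The start sites of Smg6 and Srr are 94 bases apart on opposite strands, each gene is transcribed past the start of the other, and their windows share 5 bases. Hic1 has a window for each of its RefSeq start sites. The nearer one lies inside the counted Hic1 gene and the farther one starts 736 bases beyond the counted exons. Capitals mark the GC box, searched as GGGCGG and its reverse complement CCGCCC.
Smg6, chr11:74925604-74925903, plus strand: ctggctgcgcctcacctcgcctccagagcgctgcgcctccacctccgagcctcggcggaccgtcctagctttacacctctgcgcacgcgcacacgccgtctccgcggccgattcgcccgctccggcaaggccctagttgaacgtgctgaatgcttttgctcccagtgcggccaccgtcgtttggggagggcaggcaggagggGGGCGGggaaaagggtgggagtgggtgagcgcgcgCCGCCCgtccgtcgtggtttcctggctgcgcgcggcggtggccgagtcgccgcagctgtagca
Srr, chr11:74925899-74926198, minus strand: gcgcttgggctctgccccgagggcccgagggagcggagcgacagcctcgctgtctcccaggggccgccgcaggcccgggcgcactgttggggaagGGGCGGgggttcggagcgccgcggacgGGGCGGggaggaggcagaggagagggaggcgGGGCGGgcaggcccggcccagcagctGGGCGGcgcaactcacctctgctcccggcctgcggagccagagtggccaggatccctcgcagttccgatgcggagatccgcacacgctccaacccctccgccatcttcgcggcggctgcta
Hic1 near start, chr11:75168103-75168402, minus strand: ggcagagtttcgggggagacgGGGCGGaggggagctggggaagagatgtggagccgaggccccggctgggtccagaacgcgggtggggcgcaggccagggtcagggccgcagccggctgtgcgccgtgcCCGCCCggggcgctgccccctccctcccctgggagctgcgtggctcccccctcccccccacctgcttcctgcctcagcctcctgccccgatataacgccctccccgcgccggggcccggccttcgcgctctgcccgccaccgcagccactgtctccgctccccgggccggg
Hic1 far start, chr11:75170206-75170505, minus strand: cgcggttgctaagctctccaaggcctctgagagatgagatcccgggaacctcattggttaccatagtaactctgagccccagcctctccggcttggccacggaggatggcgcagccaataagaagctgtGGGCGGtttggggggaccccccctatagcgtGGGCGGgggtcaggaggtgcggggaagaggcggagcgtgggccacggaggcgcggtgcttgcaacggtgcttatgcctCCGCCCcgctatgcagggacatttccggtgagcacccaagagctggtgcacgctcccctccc

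The promoters of the 10 genes were mostly rich in G and C. Their GC content ran from 52.3% to 77.3%, beside a median of 52.7% over all 32851 RefSeq windows, and in 13 of the 14 windows the ratio of observed to predicted CpG was above the overall median of 0.384. The exception was 1 of the 4 Rap1gap2 windows, at 0.212, and its GC content of 52.3% was also under the overall median. The GC box was found in 12 of the 14 windows and in 35.7% of all windows. The E-box CACGTG, the sequence that complexes of Max with Myc or Mnt bind, was found in the windows of Cluh and of Mnt itself and in 7.15% of all windows. The core of the sequence bound by the Hic1 protein, searched as GGGCANCC on both strands, was found in 0 of the 14 windows and in 5.46% of all. TATAAA was also in 0 of the 14, beside 13.6% of all windows, and CCAAT was in 4, beside 37.4%. A match, or the lack of one, says only which letters stand in these windows.

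Total counts per library ran from 13528251 to 17051001. The gene Gm42418, which overlaps ribosomal RNA sequence, took 55.1% to 58.0% of them, so protein-coding genes of the nucleus received 2786320 to 3732172 counts per library and the 10 neighbours together 5967 to 7905. Cortical markers matched the labelled tissue, with Camk2a at 11110 and Slc17a7 at 3647 normalized counts in WT (counts divided by the size factor of the library). Marker lists of several cell types differed in sum between the genotypes, cortex from 17590 to 17960 in WT against 16540 to 16610 in HAR123-KO, choroid plexus from 959.5 to 1013 against 1883 to 2006, and striatal projection neurons from 5689 to 5938 against 7355 to 7565. Most of the choroid plexus sum was Enpp2, at means of 889.1 in WT and 1197 in HAR123-KO. Ttr, in the same list, had means of 68.18 and 641.3. Astrocyte markers summed to 23120 to 23800 against 21460 to 22100 and oligodendrocyte markers to 15080 to 15570 against 17130 to 17470, while microglial markers, at 1031 to 1129 and 1007 to 1068, overlapped. Their part in the values of the 10 neighbours was not tested.

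None of the neighbours passed the threshold in HAR123-KO against WT. DESeq2 called 0 of 10 at an adjusted p under 0.05 with a log2 fold change beyond 0.5 in either direction, where 0.294% of the 16012 genes with an adjusted p were called, 35 higher and 12 lower. That background of 47 genes was itself unsteady, at 11 without HAR123-KO replicate 4, 20 without WT replicate 3, 27 without HAR123-KO replicate 1, 30 without WT replicate 1 and 9 with the replicate number as a block. The adjusted p of the 10 genes ran from 0.825 to 1. An unadjusted p under 0.05 was seen in 0 of 10, against 4.53% of all genes and 8.96% of those whose mean reached 20 normalized counts. The quasi-likelihood test of edgeR and limma-voom called 0 of the 9 genes they kept, and edgeR without its filter on low counts called 0 of 10. Normalized counts of WT and HAR123-KO overlapped at every one of the 10 genes, whereas they were apart at 7.78% of all genes whose mean reached 20 normalized counts. With 0 calls among 10 genes and a background this low, the count by itself carries little information, and the intervals below say more.

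The intervals bounded the change tightly at 9 of the 10 genes. For these 9, log2 fold changes lay between -0.18 and 0.03, and their 95% intervals reached no lower than -0.41 and no higher than 0.17. In terms of level, the largest fall inside any of the 9 intervals was 24.7%, at Mettl16, and the largest rise was 12.1%, at Sgsm2. A change of log2 1 or more, the size at which a fall leaves 50% of the WT level, was excluded at all 9 by the DESeq2 test of that bound (largest adjusted p = 6.61e-12), as it was at 67.5% of the 20657 genes with an adjusted p for that bound and at 99.1% of genes whose mean reached 20 normalized counts. A change of log2 0.5 or more was excluded at the same 9 (largest adjusted p = 0.00617, Mettl16), beside 68.7% of the 13690 genes with an adjusted p for that bound and 75.9% of genes at a mean of 20 or more. At Mettl16 this call was lost with the replicate number as a block (interval from -0.53 to 0.19), and the lower bound that holds for the 10 genes together, -0.51, also passed 0.5. Such bounds are usual at the depth of these 9 genes, since in the classes of mean count that hold them 100% of all genes met the bound at 1 and 96.5% to 99.3% the bound at 0.5. Hic1 did not meet the bound at 1 and had no adjusted p for that at 0.5. Of the 10 log2 fold changes 9 were below 0 and 1, that of Sgsm2, was above. Their median was -0.03, beside -0.001 over the 12383 genes whose mean reached 20 normalized counts, of which 50.4% were below 0. That split was not stable, since only 4 of the 10 were below 0 when library totals served as size factors, which moved the median of all genes to 0.04.

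**Figure D1:**
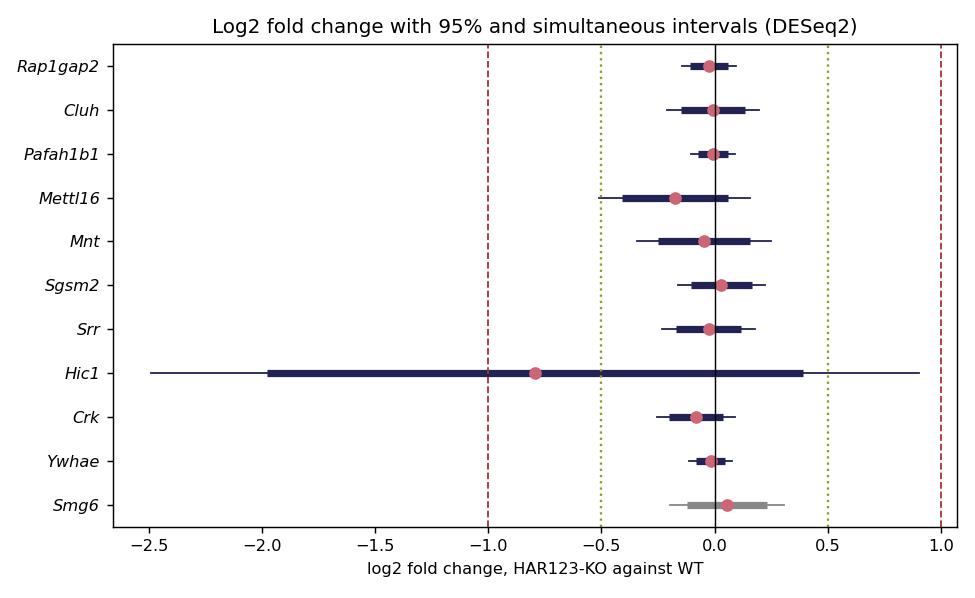
Log2 fold change of HAR123-KO against WT (x axis) for each neighbour, in chromosome order, and for Smg6 in grey. Points are DESeq2 estimates, thick bars 95% intervals and thin bars intervals that hold for the 10 genes together, dotted lines stand at 0.5 and dashed lines at 1 in both directions, and all thick bars but that of Hic1 stay between the dotted lines.

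Smg6, the host gene (chr11:74925823-75164448), served as the reference point. WT libraries averaged 209 ± 7.79 normalized counts and HAR123-KO libraries 218 ± 15.4 (SD, n = 4). The log2 fold change was 0.05 with a 95% interval from -0.12 to 0.23, so the RNA of the host gene in HAR123-KO lay between 92.0% and 117.3% of its WT level.

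Hic1 lies closest to Smg6 of the genes on the higher side (chr11:75164565-75169519), its gene body 117 bases from the end of Smg6. It encodes a zinc finger repressor of transcription and is known as a tumour suppressor gene. The 4 WT libraries had 11.3, 2.06, 7.63 and 9.63 normalized counts and the 4 HAR123-KO libraries 0, 5.71, 4.40 and 7.44. The groups overlapped, since the lowest WT library was below 3 of the 4 HAR123-KO libraries, and no library held more than 10 reads. In raw reads the WT libraries held 10, 2, 9 and 9 and the HAR123-KO libraries 0, 6, 5 and 7, or 30 against 18 in sum. The library without a read allows up to 3 counts, or 3.07 normalized counts, by counting error alone.

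The Hic1 means were 7.64 ± 4.01 normalized counts for WT and 4.39 ± 3.18 for HAR123-KO (SD, n = 4). DESeq2 gave a log2 fold change of -0.79 ± 0.60 (SE), with an unadjusted p of 0.189 and an adjusted p of 0.874. Its 95% interval ran from -1.98 to 0.39, which places the HAR123-KO level between 25.4% and 131% of WT. With the interval widened to hold for the 10 genes together, the bounds were 17.8% and 187%. A moderate difference in Hic1 was thus not detectable at this depth, and a fall to 50% of the WT level was not excluded (adjusted p of the bound at log2 1 = 0.4), whereas larger falls than to 25.4% lay outside this 95% interval. Of the 2049 genes with means of 4 to 8 normalized counts 4 were called, all with absolute log2 fold changes of 1.94 or more. Those with means under 5.89 fell below the DESeq2 filter on mean count, had no adjusted p and could not be called. An exact binomial interval from the summed reads, which covers counting error only, ran from -1.71 to 0.11. Both bounds widened under other settings, to -2.27 and 0.69 with a t quantile for 6 degrees of freedom and to -2.65 and 0.93 with the replicate number as a block, so that larger falls than to 25.4% were then inside the interval. The estimate moved with single libraries, to -0.39 without HAR123-KO replicate 1 and to -1.15 without HAR123-KO replicate 4.

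The width at Hic1 was that of its depth. Among the 2049 genes of that depth the median standard error was 0.59, beside 0.60 at Hic1, and a change of log2 1 was excluded for 79 of them (3.86%). Half-widths of the interval had medians of 1.02 at means of 5 to 10 normalized counts, 0.71 at 10 to 20 and 0.47 at 20 to 50, and a change of log2 1 was excluded for 14%, 66.4% and 96.7% of the genes in those classes. Hic1 is expressed in mesenchymal cells. The summed markers of pericytes and smooth muscle were 477.4 to 548.8 normalized counts in WT and 518.1 to 539.2 in HAR123-KO, and overlapped. Those of fibroblasts and meninges were 1408 to 1463 and 1199 to 1280, most of it from Ptgds. Those of endothelial cells, which are not mesenchymal cells, were 540.2 to 595.6 and 429.0 to 463.7. Their part in the Hic1 value was not tested.

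**Figure D2:**
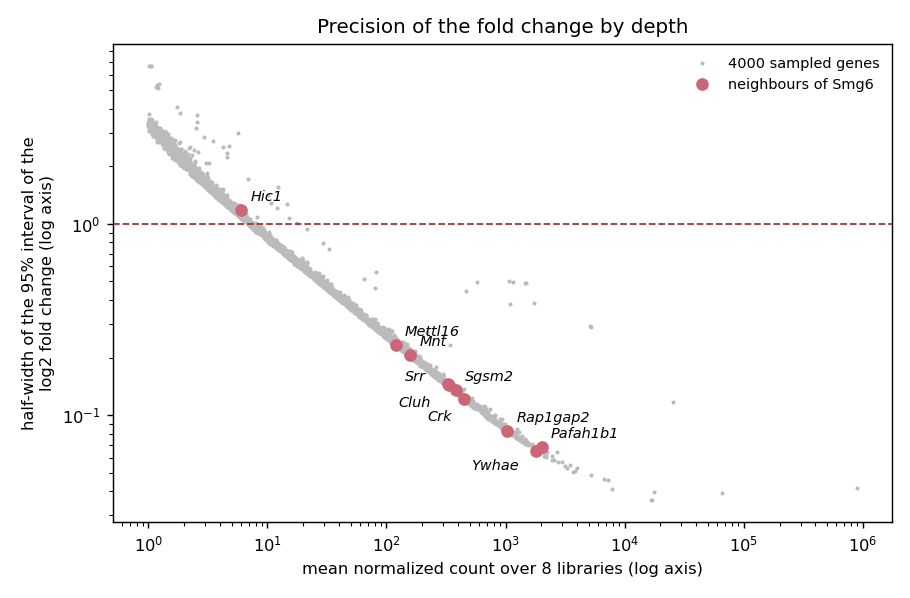
Half-width of the 95% interval of the log2 fold change (y axis, log scale) against mean normalized count over the 8 libraries (x axis, log scale). Grey points are a sample of all genes, red points the 10 neighbours, and the dashed line marks a half-width of 1, which Hic1 exceeds at 1.18 and the other 9 do not reach.

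The lissencephaly gene Pafah1b1 (chr11:74673949-74724670, 201.2 kb from Smg6 on the lower side) encodes LIS1, which binds cytoplasmic dynein and keeps it attached to microtubules during nuclear movement. The WT libraries had 2037, 2060, 2002 and 1994 normalized counts and the HAR123-KO libraries 2103, 1902, 2082 and 1963. Both the highest and the lowest value came from HAR123-KO, so the WT range lay inside the HAR123-KO range. The means were 2023 ± 30.7 and 2013 ± 96.2 (SD, n = 4), and the log2 fold change was -0.01 with a 95% interval from -0.08 to 0.06. The HAR123-KO level was thereby held between 94.9% and 104.3% of WT, and between 93.0% and 106.5% when the interval was widened to hold for all 10 genes.

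Ywhae (chr11:75732869-75765845) encodes the epsilon form of the 14-3-3 proteins, which bind phosphorylated partners such as the LIS1 cofactor Ndel1. It is the farthest of the 10 genes from Smg6, at 568.4 kb on the higher side. The WT libraries had 1793, 1827, 1794 and 1794 normalized counts and the HAR123-KO libraries 1745, 1834, 1792 and 1749. The second WT library stood above the other 3, which lay at 1793 to 1794, while the HAR123-KO libraries spanned the whole WT range. The means were 1802 ± 16.8 and 1780 ± 41.9 (SD, n = 4), the log2 fold change was -0.02, and its interval ran from -0.08 to 0.05, or 94.4% to 103.4% of WT. The bounds at Ywhae were the narrowest of the 10 genes.

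Crk (chr11:75679259-75706908, 514.8 kb away on the higher side) encodes an adaptor that links phosphorylated Dab1 to Rap1 activation in Reelin signalling. The WT libraries had 453.7, 460.2, 466.0 and 449.3 normalized counts, and the HAR123-KO libraries 435.1, 451.7, 427.0 and 414.8. Of the HAR123-KO libraries 3 were below every WT library and the fourth lay between the lowest pair of WT libraries. With 457 ± 7.33 and 432 ± 15.5 (SD, n = 4), the log2 fold change was -0.08 ± 0.06 (SE, unadjusted p = 0.183, DESeq2 adjusted p = 0.867), and its 95% interval ran from -0.20 to 0.04. A fall of more than 13.1% was outside that interval.

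**Figure D3:**
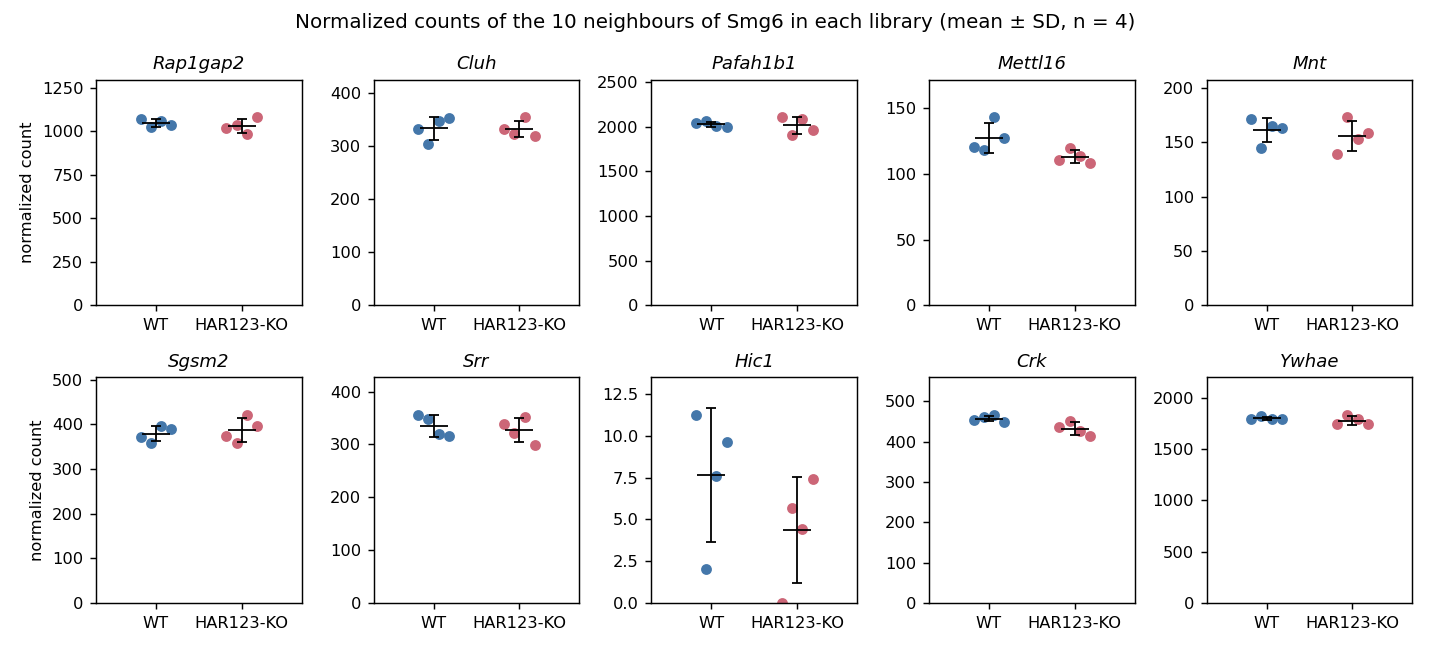
Normalized counts (y axis, from 0 in each panel) of the 10 neighbours in the 4 WT (blue) and 4 HAR123-KO (red) libraries. Horizontal marks and bars are means ± SD, and the groups overlap in every panel, with Hic1 at 0 to 11.3 counts and the other 9 genes at over 100.

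Srr (chr11:74906359-74925948) overlaps the start of Smg6 on the opposite strand, with the overlapping promoter windows printed above, and encodes serine racemase, the enzyme that makes D-serine, a co-agonist of the NMDA receptor. Its WT libraries had 355.8, 349.0, 319.4 and 315.6 normalized counts and its HAR123-KO libraries 337.9, 322.3, 351.3 and 298.8. In both groups the spread was about 20 counts around similar means, 335 ± 20.4 and 328 ± 22.5 (SD, n = 4). The log2 fold change of -0.03 had an interval from -0.17 to 0.12, or 88.8% to 108.5% of WT. Of the 4560 exon bases of Srr, 1240 (27.2%) are shared with Tsr1 and 126 (2.76%) with Smg6, both on the other strand. How strand was handled at counting is not given in the sources used here, so the Srr count may include reads of these genes. Tsr1, named for this overlap, had a log2 fold change of 0.09 ± 0.15 (SE), and the other members share no exon bases with another gene.

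Mettl16 and Mnt lie next to each other on the lower side. Mettl16 (chr11:74770830-74828525, 97.3 kb away) encodes an RNA adenosine methyltransferase that acts on the message of Mat2a, and Mnt (chr11:74830920-74845725, 80.1 kb away) a repressor that pairs with Max. Mettl16 had 120.5, 118.4, 143.2 and 127.3 normalized counts in WT and 110.6, 119.8, 113.6 and 108.5 in HAR123-KO. The overlap was small, as 1 HAR123-KO library stood above the lowest WT library and 3 stood below all of them. The log2 fold change was -0.18 ± 0.12 (SE), the largest in size among the 9 genes other than Hic1, with an unadjusted p of 0.139 and a DESeq2 adjusted p of 0.825. The 95% interval ran from -0.41 to 0.06, or 75.3% to 104.0% of WT, and from 70.2% when the interval was widened to hold for all 10 genes.

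Mnt had 171.1, 145.2, 165.2 and 163.7 normalized counts in WT and 139.2, 173.1, 153.2 and 158.5 in HAR123-KO. The highest and the lowest library were both HAR123-KO. Its log2 fold change of -0.05 had an interval from -0.25 to 0.16, which holds the HAR123-KO level between 84.0% and 111.6% of WT.

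Sgsm2, Cluh and Rap1gap2 complete the lower side. Sgsm2 (chr11:74849261-74897060, 28.8 kb away) encodes a RUN and TBC domain protein that acts on small G proteins of the Rab family. It had 371.5, 358.3, 396.5 and 389.4 normalized counts in WT and 372.7, 358.5, 420.8 and 396.7 in HAR123-KO, with the single highest value in HAR123-KO and near-equal lowest values. The log2 fold change was 0.03 and the interval ran from -0.10 to 0.17, or 93.0% to 112.1% of WT.

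Cluh (chr11:74649495-74670847, 255.0 kb away) encodes an RNA-binding protein for messages of mitochondrial proteins. The WT libraries had 332.1, 304.7, 347.4 and 353.0 normalized counts and the HAR123-KO libraries 332.8, 324.2, 354.8 and 319.0. The groups lay almost on top of each other, at 334 ± 21.6 and 333 ± 15.8 (SD, n = 4), and the interval of the log2 fold change, -0.15 to 0.14, corresponds to 90.2% to 109.9% of WT.

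Rap1gap2 (chr11:74383356-74610915, 314.9 kb away) encodes a GTPase-activating protein that switches off Rap1 and takes part in the release of secretory vesicles. It had 1072, 1023, 1057 and 1036 normalized counts in WT and 1016, 1037, 984.3 and 1079 in HAR123-KO. The extremes on both sides were again HAR123-KO libraries. Its log2 fold change of -0.03 had an interval from -0.11 to 0.06, or 92.7% to 104.0% of WT.

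Levels per kilobase of exon, the scale on which genes can be compared with one another, separated the 10 neighbours by more than 2 orders of magnitude. Ywhae was at 697.5 ± 12.4 normalized counts per kilobase (SD, 8 libraries), Pafah1b1 at 209.8 ± 6.88, Rap1gap2 at 144.9 ± 4.36, Crk at 94.0 ± 3.70 and Srr at 72.7 ± 4.45. Ywhae thus stood at percentile 99.8 of protein-coding genes, and the first 5 genes were all above percentile 91. Sgsm2 followed at 55.6 ± 3.15, Cluh at 51.3 ± 2.70, Mnt at 34.3 ± 2.61, Mettl16 at 8.70 ± 0.80 and Hic1 at 1.60 ± 1.01, the last at percentile 39.5. In that order only Sgsm2 and Cluh had overlapping ranges over the 8 libraries, from 52.0 to 61.1 and from 46.9 to 54.6 per kilobase, and every other gene was apart from the next. The order was the same when values were scaled within protein-coding genes as in TPM.

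The spread between libraries was of the same order as that of counting. The coefficient of variation of Ywhae was 0.93% in WT and 2.35% in HAR123-KO, beside 2.35% from counting alone. Pafah1b1 had 1.52% and 4.78% beside 2.22%, Mettl16 8.82% and 4.36% beside 9.06%, and Hic1 52.4% and 72.5% beside 40.8%. Whether the HAR123-KO spread was larger than the WT spread was not tested. The genes whose log2 normalized counts followed Pafah1b1 most closely over the 8 libraries, among 8807 protein-coding genes of mean 50 or more, were Trmt2a, Gpr85 and Vxn (Pearson r = 0.97, 0.94 and 0.93), and those of Ywhae were Bex2, Ndufa4 and Gadd45gip1 (0.99, 0.93 and 0.93). These are the highest of many values over few libraries that share their scaling, and they are given as a description only.

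The whole stretch of chromosome 11 from Rap1gap2 to Ywhae was then examined, chr11:74383356-75765845, so that the result does not rest on the 10 names. It spans 1382 kb and holds 53 annotated genes, of which 44 had counts and 27 reached a mean of 20 normalized counts, 17 of them other than Smg6 and the neighbours named above. DESeq2, edgeR and limma-voom called 0 of them, beside 0.294% of all genes by DESeq2, and 15 of the 44 had no adjusted p and could not be called. An unadjusted p under 0.05 was seen in 0 of 44, beside 4.53% of all genes. The smallest unadjusted p was 0.0556 at the small nucleolar RNA gene Snord91a, with a mean of 0.94 normalized counts, a gene named after its value was seen. Among the 27 genes, 11 had a log2 fold change above 0 and 16 below, with a median of -0.01 and a range from -0.21 to 0.29. The 3 largest in size were 0.29 at the antisense gene Gm45606, 0.29 at the pseudogene Gm12335 inside Smg6 and -0.21 at Ovca2. All 3 had intervals that included 0. A change of log2 1 was excluded at all 27 and one of 0.5 at 23, beside 99.1% and 75.9% of all genes at that mean. The hairpins of the neuronal microRNAs Mir212 and Mir132, 8.9 kb and 9.2 kb beyond Smg6, had means of 1.48 and 0.34 normalized counts and could not be assessed. They too were named after their values were seen.

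Medians in bins of distance from Smg6 did not move in one direction, and none was farther from 0 than -0.04. Genes under a mean of 20 normalized counts were left out of the bins, among them Hic1, 0.1 kb from Smg6 and at -0.79. Within 250 kb there were 12 genes of mean 20 or more, 5 of them among the neighbours, and their median log2 fold change was -0.04. From 250 to 500 kb it was -0.002 over 12 genes, from 500 to 1000 kb -0.02 over 6, from 1000 to 2000 kb -0.03 over 16, and from 2000 to 5000 kb -0.02 over 86. The counts of genes with an unadjusted p under 0.05 in these 5 bins were 0 of 12, 0 of 12, 1 of 6, 3 of 16 and 7 of 86, beside 8.96% of all genes at that mean. None of the genes in any bin was called by DESeq2, and 1 in the farthest bin had an adjusted p under 0.05 with a change under 0.5.

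**Figure D4:**
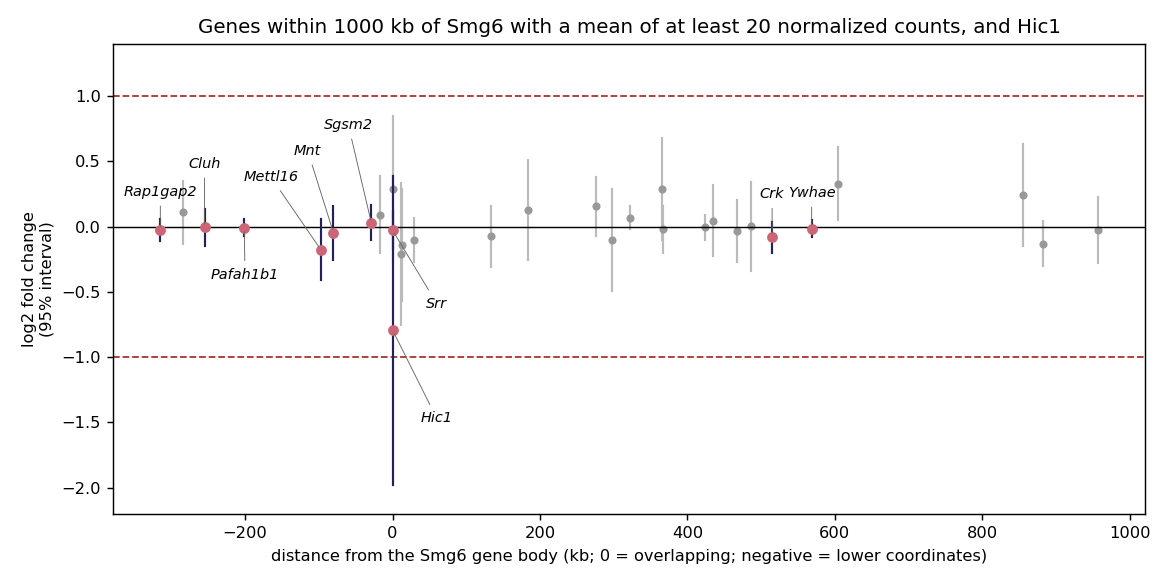
Log2 fold change with its 95% interval (y axis) against distance from the Smg6 gene body (x axis, kb, negative towards lower coordinates) for genes within 1000 kb. Red points are the 10 neighbours and grey points other genes whose mean reached 20 normalized counts, dashed lines stand at 1 and -1, and only the interval of Hic1, from -1.98 to 0.39, crosses one of them.

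The partners of the neighbours elsewhere in the genome were examined in 10 lists with 154 genes in all, 137 of them at a mean of 20 normalized counts or more. Of these 137, 70 had a log2 fold change above 0 and 67 below. DESeq2, edgeR and limma-voom called 0, and 13 of the 137 had an unadjusted p under 0.05, beside 8.96% of all genes at that mean. In the list of dynein subunits and LIS1 partners 14 of 27 measured genes were above 0 and 13 below, with a median of 0.002. Dync1h1, the dynein heavy chain, had 0.01 ± 0.03 and Dctn1, the largest dynactin subunit, -0.05 ± 0.04 (log2 fold change ± SE). Of the other 14-3-3 genes 1 was above 0 and 4 below (median -0.07), with Ywhaz at 0.006 ± 0.03 and Ywhag at -0.03 ± 0.03. Further lissencephaly genes were split 10 to 9 (median 0.02). Among them Tubb2b, a beta-tubulin of young neurons, was at -0.22 ± 0.06 (DESeq2 adjusted p = 0.0112) and Actb, the cytoplasmic beta-actin, at 0.10 ± 0.03 (DESeq2 adjusted p = 0.0202), both under the limit of 0.5.

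In the Reelin, Crk and Rap1 list 11 genes were above 0 and 10 below (median 0.004), and Rap1gap, the paralogue of Rap1gap2, was at 0.16 ± 0.05 (SE, DESeq2 adjusted p = 0.0418), again under the limit. For D-serine and the NMDA receptor the split was 4 to 8 (median -0.03), with Grin2b at -0.02 ± 0.02 and Grin2a at -0.04 ± 0.03. For Myc, Max and Mnt it was 8 to 3 (median 0.02, Mga at 0.003 ± 0.06, Sin3b at -0.10 ± 0.07). RNA methylation genes were split 8 to 10 (median -0.03, Fto at 0.09 ± 0.06, Zc3h13 at -0.11 ± 0.07). Reported partners and targets of Hic1 were split 4 to 3 (median 0.002), with the corepressor Ctbp1 at 0.002 ± 0.06 and Sox9 at -0.25 ± 0.11. Mitochondrial messages and translation factors listed with Cluh were split 6 to 5 (median 0, Atp5a1 at 0.07 ± 0.03, Sdha at -0.04 ± 0.05). The Rab list with Sgsm2 was split 4 to 2 (median 0.02), with Rab3a at 0.04 ± 0.04 and Sgsm1 at -0.23 ± 0.07 (DESeq2 adjusted p = 0.0585). These lists were described by counts and medians only.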

How the data were processed

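Total RNA of frontal cortex was depleted of ribosomal RNA and sequenced from a directional library kit in 4 WT and 4 HAR123-KO samples, grouped and numbered by their titles. The authors aligned reads with STAR 2.5.2b to GRCm38 (Ensembl) and deposited raw counts of reads over the exons of each gene from featureCounts. The settings for strand and for reads with several matches are not given in the sources used here. All 55536 gene identifiers had the same start and end in the GENCODE M21 annotation, which gave symbols, and 0 sample columns were left unused.

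DESeq2 1.42.0 (R 4.3.3) was fitted to the genes with counts and its Wald test used (median-of-ratios size factors, genotype only, Benjamini-Hochberg over genes kept by its independent filter at 0.1). Calls required an adjusted p under 0.05 together with a log2 fold change beyond 0.5 in either direction, the study's limits for this tissue. Intervals are estimates ± 1.96 standard errors, or the normal quantile adjusted for 10 intervals. Bounds at 1 and 0.5 used the DESeq2 test of a smaller absolute change. Counting error is that of reads without molecular tags and covers counting only.

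Alternatives were edgeR 4.0.16, limma-voom (limma 3.58.1), other size factors and filters, other thresholds, the replicate number as a block, and each library left out. Chosen after seeing the data were keeping genes without counts, edgeR without a filter, and sums over marker lists. The code was tested on simulated data. The neighbours and lists were chosen with earlier results of these data known. Named beside the neighbours and Smg6 were interval genes with an unadjusted p under 0.05, the 3 interval genes of mean at least 20 with the largest change, list genes with an adjusted p under 0.05 or else the 2 of highest mean, and the 3 genes most correlated with Pafah1b1 and with Ywhae. Snord91a, Tsr1, Mir212 and Mir132 fall outside this rule and were chosen after their values were seen. Promoter windows were taken from RefSeq.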

Additional observations from a re-analysis of the deposited data

Results flagged for a closer look

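Ywhae in WT replicate 2 had 1827 normalized counts, while the other 3 WT libraries had 1793 to 1794, so its distance from the nearest of them was 0.983 of the range of the group. Of the 22 groups of 4 libraries tested in this way (the 10 neighbours and Smg6 in each genotype) this was the 1 that stood out, and chance would give about 1.1. The value lies inside the range of the HAR123-KO libraries.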

How the results depend on the processing

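Of the 10 neighbours 0 passed the threshold under any alternative run, and the same held for the genes of the interval. A change of log2 1 or more was excluded at 9 genes under each alternative DESeq2 fit, and a change of 0.5 or more at 9 except under the replicate block, where it was 8, without Mettl16. The DESeq2 test of a bound does not apply to edgeR and limma-voom. The widest bounds of their intervals at the 9 genes were 0.375 in size with edgeR, 0.376 with edgeR without its filter and 0.37 with limma-voom. Mettl16 and Crk stayed below 0 in all 18 alternatives and Hic1 in its 15. Hic1 was dropped by the count filters of edgeR and limma-voom and by the minimum of 10 counts in 4 libraries. It had no adjusted p, and could not be called, with library totals as size factors or with genes without counts kept. The same held without WT replicate 3, without WT replicate 4 and without any single HAR123-KO replicate, so these runs say nothing on a call at Hic1. Without the edgeR filter Hic1 was at -0.79, with an interval from -1.74 to 0.17 and an edgeR adjusted p of 0.693.

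With library totals as size factors the sign turned at Rap1gap2 (0.012), Cluh (0.032), Pafah1b1 (0.032), Srr (0.013) and Ywhae (0.022), and the median of all genes moved to 0.04. Leaving out each library in turn gave ranges that crossed 0 at Srr (-0.064 to 0.012), Pafah1b1 (-0.028 to 0.021), Cluh (-0.048 to 0.019), Mnt (-0.101 to 0.003) and Sgsm2 (-0.015 to 0.067), all inside the intervals in the report. At Hic1 that range was -1.15 to -0.39, the value nearest 0 without HAR123-KO replicate 1 and the farthest without HAR123-KO replicate 4, and the 95% intervals reached from -2.54 to 0.83.

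The replicate numbers did not pair the libraries (correlations of same-numbered libraries from -0.03 to 0.03). With the number as a block the widest bound at the 9 genes was 0.53 and the bounds at Hic1 were -2.65 and 0.93. With a t quantile for 6 degrees of freedom they were -2.27 and 0.69. The number of genes past the threshold, 47, was 73 with edgeR, 92 with edgeR without its filter, 9 with the block, 9 at the stricter limits, 214 without a minimum fold change, and 11 to 44 with a library left out (30 without WT replicate 1, 20 without WT replicate 3, 27 without HAR123-KO replicate 1 and 11 without HAR123-KO replicate 4). Without a minimum fold change 3 list genes passed. With genes without counts kept in the fit 38 genes in all were past the threshold, and Hic1 then had no adjusted p. The causes were not tested.

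Low counts limit Hic1 and the microRNA hairpins. Nothing here bears on other ages, on development, or on single cell types.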
